A study of Arabidopsis thaliana with 4 samples.

Results

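The 9 genes described here make, or switch on, the tryptophan-derived defence compounds of *Arabidopsis thaliana*: camalexin and the cyanogenic indole compound 4-hydroxyindole-3-carbonyl nitrile (4-OH-ICN). They were taken by locus from the deposited gene table by a rule that uses no measured value, and are 9 of its 28642 loci. The group itself was chosen with earlier results of these data known. Its counts beside the shares of all genes are therefore not an independent test. The genes are *CYP79B2*, *CYP79B3*, *CYP71A12*, *CYP71A13*, *CYP71A18*, *PAD3*, *CYP82C2*, *FOX1* and *WRKY33*. Of these, 8 had enough reads to be tested, *CYP71A18* being the exception. RNA from whole roots was sequenced in 2 libraries of *atx1setm* and 2 libraries of the WT, the accession Wassilewskija (Ws). *atx1setm* carries an *ATX1* transgene whose SET domain has lost its methyltransferase activity, in the *atx1-1* mutant background, also in Ws. The labels give seedlings of 10 days for both genotypes, whereas the methods give 8 days for the sequencing and 8 to 10 days for the RNA. All were grown on vertical plates with no pathogen or elicitor named.

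Camalexin is the main phytoalexin of *Arabidopsis*, a compound made on attack rather than stored. CYP79B2 and CYP79B3 turn tryptophan into indole-3-acetaldoxime, from which indole glucosinolates also branch off, and enzymes of the CYP71A group turn that aldoxime into indole-3-acetonitrile or, for 4-OH-ICN, into an indole cyanohydrin. PAD3 closes the ring of camalexin, FOX1 and CYP82C2 complete 4-OH-ICN, and WRKY33 is the transcription factor that binds W-box elements of several of these genes after infection.

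The sequences just upstream of 7 genes are shown: the 5 tested genes of the group whose libraries did not overlap between genotypes (*CYP71A12*, *PAD3*, *CYP82C2*, *FOX1* and *WRKY33*), and *CYP71A13* and *CYP82C4* as close copies of *CYP71A12* and *CYP82C2*. Each is the 250 bases before the gene start of the RefSeq annotation (TAIR10.1, Columbia accession, not Ws), written 5′ to 3′ on the strand of the gene, and capitals mark the W-box core TTGAC on either strand (GTCAA on the other), which cannot overlap one another.
CYP71A12: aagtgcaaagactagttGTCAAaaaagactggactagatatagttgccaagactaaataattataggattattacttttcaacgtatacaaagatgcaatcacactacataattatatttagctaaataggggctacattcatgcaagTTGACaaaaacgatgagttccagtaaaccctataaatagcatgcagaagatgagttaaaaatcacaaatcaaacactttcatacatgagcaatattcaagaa
CYP71A13: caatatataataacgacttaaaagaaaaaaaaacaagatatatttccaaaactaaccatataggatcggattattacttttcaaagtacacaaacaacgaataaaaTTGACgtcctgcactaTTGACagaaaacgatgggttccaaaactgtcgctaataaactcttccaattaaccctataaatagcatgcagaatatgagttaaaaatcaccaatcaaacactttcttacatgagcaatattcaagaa
PAD3: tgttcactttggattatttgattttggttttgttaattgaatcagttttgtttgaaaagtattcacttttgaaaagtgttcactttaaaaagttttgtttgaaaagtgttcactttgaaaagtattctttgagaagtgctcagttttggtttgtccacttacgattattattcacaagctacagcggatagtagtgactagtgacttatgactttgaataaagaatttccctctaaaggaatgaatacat
CYP82C2: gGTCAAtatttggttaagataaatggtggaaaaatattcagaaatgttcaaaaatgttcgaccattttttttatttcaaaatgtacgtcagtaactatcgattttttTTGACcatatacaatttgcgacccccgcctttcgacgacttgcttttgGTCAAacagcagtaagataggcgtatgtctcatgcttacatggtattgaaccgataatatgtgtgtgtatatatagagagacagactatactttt
CYP82C4: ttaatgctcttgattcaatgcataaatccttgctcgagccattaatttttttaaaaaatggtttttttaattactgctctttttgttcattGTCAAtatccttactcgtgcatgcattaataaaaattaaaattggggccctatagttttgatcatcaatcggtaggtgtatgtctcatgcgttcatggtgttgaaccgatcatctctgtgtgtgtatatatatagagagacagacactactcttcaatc
FOX1: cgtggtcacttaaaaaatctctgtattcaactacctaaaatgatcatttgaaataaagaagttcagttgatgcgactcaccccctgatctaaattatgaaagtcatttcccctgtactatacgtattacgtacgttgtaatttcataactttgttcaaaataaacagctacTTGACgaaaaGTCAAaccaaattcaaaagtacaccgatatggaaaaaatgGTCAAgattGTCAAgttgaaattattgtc
WRKY33: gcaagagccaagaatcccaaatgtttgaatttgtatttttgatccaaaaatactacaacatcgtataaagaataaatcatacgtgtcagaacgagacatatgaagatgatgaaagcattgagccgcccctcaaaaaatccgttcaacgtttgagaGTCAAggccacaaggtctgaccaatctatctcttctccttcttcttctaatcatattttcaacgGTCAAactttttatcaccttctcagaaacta
The W-box core occurred 2 times before *CYP71A12*, 2 times before *CYP71A13*, 3 times before *CYP82C2*, 4 times before *FOX1*, 2 times before *WRKY33* and 1 time before *CYP82C4*. It was not found in the 250 bases before *CYP79B2*, *CYP79B3*, *CYP71A18* and *PAD3*. Of 27443 protein-coding genes, 44.9% had 1 or more in a window of this length, 14.1% had 2 or more and 0.721% had 4 or more. In the group, 5 of 9 genes had 1 or more, the same 5 had 2 or more and 1 had 4 or more, counts that were not tested. The RefSeq models of *CYP71A12* and *CYP71A13* begin at the start codon, at 13101371 and 13111988. Their TAIR10 models begin further upstream, at 13101413 and 13112011, so these 2 windows hold part of the TAIR10 gene models. A match is only a match of letters and was not tested as a binding site.

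The libraries held 42842799 and 45025842 exon reads in *atx1setm*, and 46439122 and 38574293 in Ws. *ATX1*, the altered gene, had 475 and 270 exon reads in *atx1setm* and 731 and 388 in Ws, or -0.53 as log2 fold change (*atx1setm* over Ws throughout; SE 0.34, adjusted p = 0.701, edgeR quasi-likelihood test), and reads of the transgene would fall on the same locus. Libraries with the same replicate number resembled each other across genotypes: 6 of the 8 tested genes were higher in replicate 1 of both genotypes, against 39.7% of all genes. Nothing in the sources says that a number marks a shared day or batch. The same spread enters every error given here, and an SD or SE over 2 libraries per genotype is itself imprecise. As whole roots were sequenced, fewer cells of a type and less RNA per cell cannot be told apart.

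Between the genotypes, the 4-OH-ICN gene *CYP82C2*, *CYP71A12* and *PAD3* stood out as higher in *atx1setm*, and *WRKY33* was lower. The libraries of the 2 genotypes overlapped for the aldoxime genes *CYP79B2* and *CYP79B3*. By the edgeR quasi-likelihood test with Benjamini-Hochberg adjustment over 20714 genes, 0 of the 8 tested genes passed an adjusted p of 0.05, and so did 0% of all genes. At an unadjusted p under 0.05 in the same edgeR test, 3 of 8 were higher in *atx1setm* (*CYP71A12*, *PAD3* and *CYP82C2*), against 4.93% of all genes, and 1 of 8 was lower (*WRKY33*), against 4.78%. The edgeR exact test, the one nearest to the authors' own, called the same 3 genes higher at an adjusted p under 0.05 (1.71% of all genes) and 0 lower (2.24% of all genes). DESeq2 called these 3 higher (1.46% of all genes) and *WRKY33* lower (1.75% of all genes). At the stricter thresholds of the study (a 3-fold change, a p of 0.0001 and an adjusted p of 0.01), the exact test kept *CYP71A12* and *CYP82C2*, against 0.826% of all genes. The study's own list of differentially expressed genes already held both, among other genes named below. Levels in CPM (exon reads scaled to library size and TMM) lay above both Ws libraries in both *atx1setm* libraries for 4 of 8 genes, against 19.6% of all genes, and below both for 1 of 8, against 20%. The median log2 fold change of the 8 genes was 0.77, and that of all genes -0.012. Under library totals and log2 RPKM the median of all genes moved to between -0.13 and -0.10. The adjusted call itself depended on the set of libraries: without *atx1setm* replicate 1 it was 4 genes of the group (21.7% of all genes), without *atx1setm* replicate 2 it was 4 (4.53% of all genes), without Ws replicate 1 it was 2 (0.697% of all genes) and without Ws replicate 2 it was 3 (1.16% of all genes), each fit taking the lone library to vary like the other genotype.

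**Figure D1:**
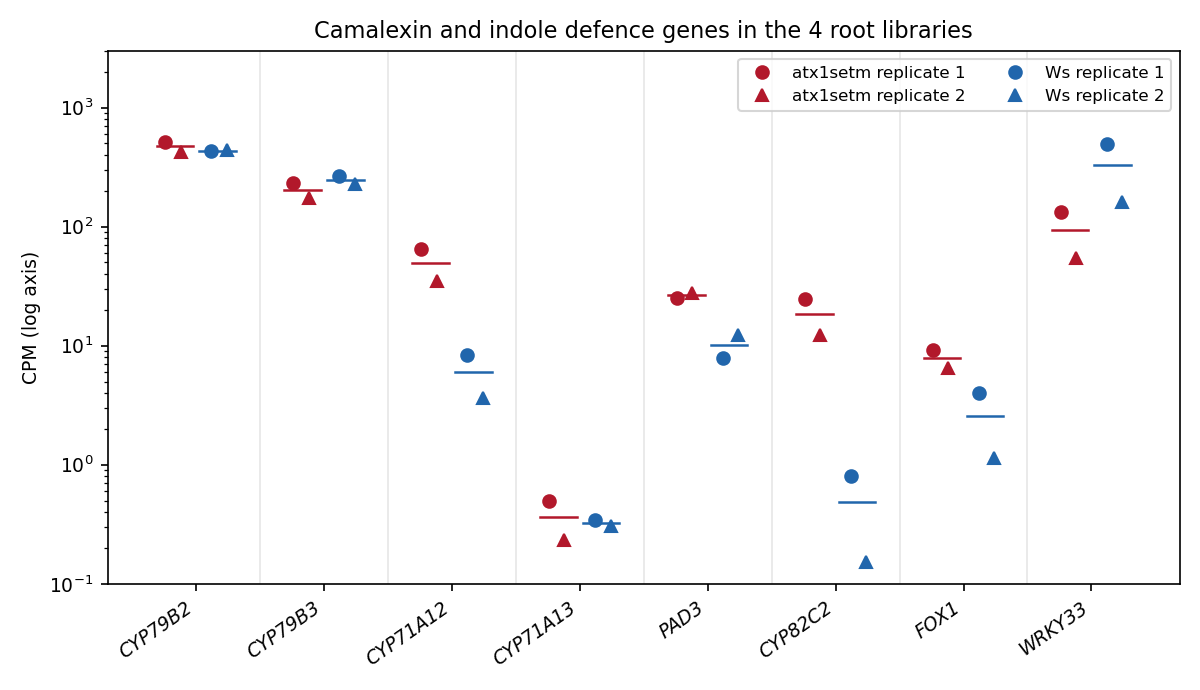
CPM on a log axis of the 8 tested genes in each library, *atx1setm* in red left of Ws in blue, with circles for replicate 1, triangles for replicate 2 and a line at each mean. *CYP71A12*, *PAD3*, *CYP82C2* and *FOX1* have both red points above both blue points, *WRKY33* has both below, and the gap is narrowest for *WRKY33*, with 133 CPM in *atx1setm* replicate 1 and 161 CPM in Ws replicate 2. *CYP71A18*, with 0 reads in Ws, cannot be drawn on a log axis.

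At the entry into the pathway, neither gene was called by the edgeR quasi-likelihood test, the exact test or DESeq2, which does not show equal levels. *CYP79B2* (AT4G39950, chromosome 4, 18525246 to 18527579, TAIR10) had 518 and 425 CPM in *atx1setm* libraries 1 and 2, against 428 and 438 CPM in Ws. The ranges overlapped, and its log2 fold change was 0.12 (SE 0.28, adjusted p = 0.882, edgeR quasi-likelihood test). *CYP79B3* (AT2G22330, chromosome 2, 9488554 to 9491187), the second enzyme for this step, had 231 and 175 CPM in *atx1setm* and 267 and 228 CPM in Ws. The lower Ws library lay just below the higher *atx1setm* library, the log2 fold change being -0.29 (SE 0.28, adjusted p = 0.759, edgeR quasi-likelihood test). Without *atx1setm* replicate 1 the log2 fold change of *CYP79B2* turned to -0.027. Per exon length, these were the most abundant enzyme genes of the group, with *CYP79B2* at 281 and 181 RPKM in *atx1setm* and 227 and 221 RPKM in Ws.

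At the next step, nearly all reads came from 1 of the 3 genes. *CYP71A12* (AT2G30750, chromosome 2, 13099336 to 13101413) had 3016 and 1353 exon reads in *atx1setm*, against 414 and 143 in Ws, or 64.6 and 35.1 CPM against 8.40 and 3.67 CPM. The lower *atx1setm* library lay above the higher Ws library, and replicate 1 was the higher library in both genotypes. The means were 49.9 ± 20.9 CPM in *atx1setm* and 6.03 ± 3.34 CPM in Ws (SD, n = 2 libraries each). The log2 fold change came to 3.04 (SE 0.55), or 8.25-fold, with an adjusted p of 0.166 by the edgeR quasi-likelihood test. The exact test of edgeR gave an adjusted p of 4.24e-05 and DESeq2 one of 9.07e-08, within a range of 1.71e-31 to 0.264 over the 14 alternatives. Leaving out 1 library moved the log2 fold change between 2.54 (without *atx1setm* replicate 1) and 3.76 (without Ws replicate 1). Its reads were spliced, with 189 and 92 exon junction reads in *atx1setm* and 26 and 11 in Ws.

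*CYP71A13* (AT2G30770, chromosome 2, 13109794 to 13112011), the form best known from camalexin synthesis in infected leaves, had few reads in these roots. It had 23 and 9 exon reads in *atx1setm* and 17 and 12 in Ws, which overlapped. The log2 fold change was 0.17 (SE 0.54, adjusted p = 0.918, edgeR quasi-likelihood test), and without *atx1setm* replicate 1 it was -0.48. *CYP71A18* (AT1G11610, chromosome 1, 3906862 to 3909338), a further close relative, had 1 and 1 exon reads in *atx1setm* and 0 and 0 in Ws. These lie under 3 reads, the limit that a count of 0 allows per library, so no difference was detectable at this depth. The RPKM of *CYP71A12* was 127 and 146 times that of *CYP71A13* in *atx1setm*, and 23.6 and 11.5 times in Ws. The coding sequences of *CYP71A12* and *CYP71A13* were 90.4% identical in the reference, and 3% of the 50-base windows of *CYP71A12* exons occurred elsewhere in the genome, in *CYP71A13* and *CYP71A18*. In the Columbia reference these copies thus differed in most windows of this length, 50 being the sequencing cycles of the study. The reads came from Ws and the mapping settings are not stated. Whether each read was assigned to the right copy was not tested.

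*PAD3* (AT3G26830, chromosome 3, 9887948 to 9889705), also named *CYP71B15*, encodes the enzyme of the last camalexin step. It had 25.1 and 27.7 CPM in *atx1setm*, against 7.91 and 12.4 CPM in Ws. The genotypes did not overlap, and *PAD3* was the only tested gene of the group with replicate 2 as the higher library in both. The mean was 26.4 ± 1.85 CPM in *atx1setm* and 10.1 ± 3.17 CPM in Ws (SD, n = 2 each). On the log2 scale the fold change was 1.38 (SE 0.31), or 2.60-fold, with an adjusted p of 0.238 by the edgeR quasi-likelihood test. The adjusted p was 0.0163 by the exact test of edgeR and 0.0229 by DESeq2, within 1.75e-07 to 1.00 over the 14 alternatives. With 1 library left out, the log2 fold change lay between 1.09 (without Ws replicate 1) and 1.75 (without Ws replicate 2). *PAD3* was not called in either of these fits, whereas *CYP71A12* and *CYP82C2* were called in both. The RPKM of *PAD3* was 0.394 and 0.801 of that of *CYP71A12* in *atx1setm*, and 0.957 and 3.43 of it in Ws.

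The branch to 4-OH-ICN held the greatest difference among the 8 tested genes. *CYP82C2* (AT4G31970, chromosome 4, 15462408 to 15464358), which hydroxylates indole-3-carbonyl nitrile, had 1154 and 472 exon reads in *atx1setm*, against 40 and 6 in Ws. That is 24.7 and 12.3 CPM in *atx1setm* and 0.811 and 0.154 CPM in Ws, far apart in relation to the gap between libraries of a genotype. The log2 fold change was 5.21 (SE 0.84), or 37.1-fold, with an adjusted p of 0.140 by the edgeR quasi-likelihood test. The exact test of edgeR gave an adjusted p of 1.15e-06 and DESeq2 one of 1.03e-14, within 4.81e-53 to 0.200 over the 13 alternatives that tested it. The size rests on few Ws reads: the log2 fold change was 6.88 without Ws replicate 1, 4.53 without Ws replicate 2 and 3.82 on log2(RPKM + 0.5), the lowest of all alternatives. Exon junction reads were 65 and 28 in *atx1setm* and 1 and 0 in Ws.

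*FOX1* (AT1G26380, chromosome 1, 9126737 to 9128528), a gene with 1 exon for an FAD-linked oxidase that acts just before CYP82C2, had 9.22 and 6.47 CPM in *atx1setm*, against 3.97 and 1.13 CPM in Ws. The lower *atx1setm* library was above the higher Ws library. Its log2 fold change was 1.61 (SE 0.64, adjusted p = 0.517, edgeR quasi-likelihood test) and did not pass. The exact test of edgeR (adjusted p = 0.244) and DESeq2 (0.105) did not call it either, within 6.45e-08 to 0.999 over the 14 alternatives. It passed without *atx1setm* replicate 2 (log2 fold change 1.87, adjusted p = 0.00217, edgeR). With Ws replicate 2 left out it was 1.00, and with Ws replicate 1 left out it was 2.79.

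*WRKY33* (AT2G38470, chromosome 2, 16108361 to 16110766) went the other way from *CYP71A12*, *PAD3* and *CYP82C2*. It had 6223 and 2102 exon reads in *atx1setm* and 24233 and 6294 in Ws, or 133 and 54.6 CPM against 491 and 161 CPM. Both *atx1setm* libraries were below both Ws libraries, but the higher *atx1setm* library came near the lower Ws library, and replicate 1 was 2.44 times replicate 2 in *atx1setm* and 3.04 times in Ws. Its log2 fold change was -1.80 (SE 0.70), with an adjusted p of 0.510 by the edgeR quasi-likelihood test. DESeq2 gave an adjusted p of 0.0412 and the exact test of edgeR 0.180, within 2.82e-09 to 1.00 over the 14 alternatives. Ws replicate 1 weighed most on it: without that library the log2 fold change was -0.78 and its unadjusted p in the edgeR test no longer passed 0.05, and without *atx1setm* replicate 1 it was -2.58. The RPKM of *WRKY33* was 1.83 and 1.38 times that of *CYP71A12* in *atx1setm*, and 51.9 and 39.0 times in Ws. In *atx1setm* roots, *WRKY33* was thus close in level to *CYP71A12*, whereas in Ws roots it far exceeded it.

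**Figure D2:**
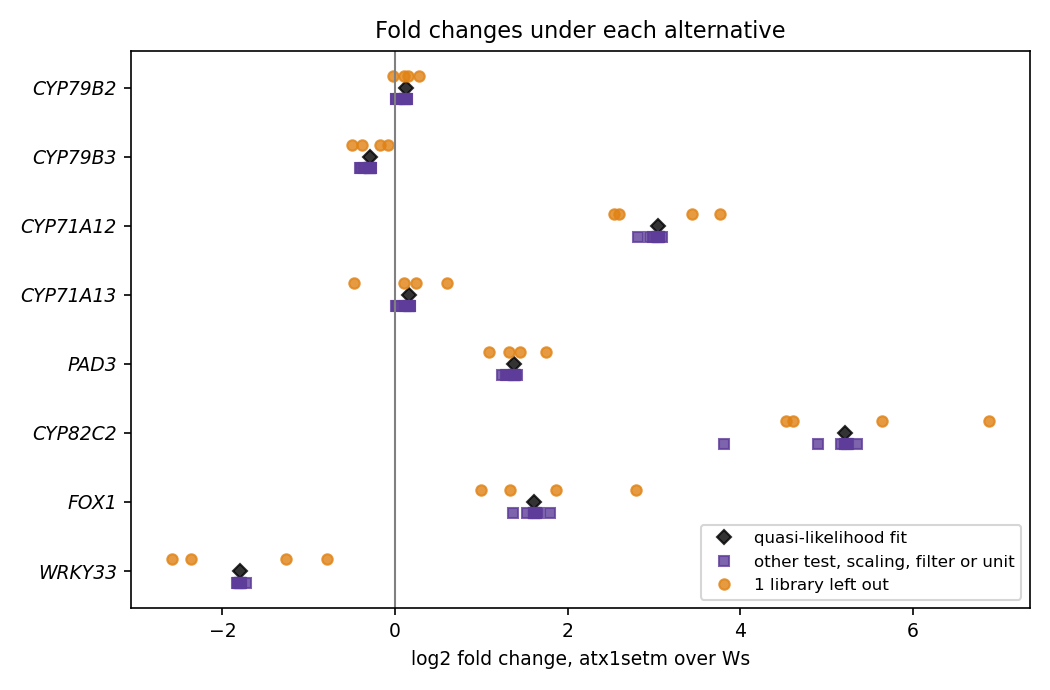
Log2 fold change (*atx1setm* over Ws, horizontal axis) of the 8 tested genes, as black diamonds for the quasi-likelihood fit, orange circles for fits with 1 library left out and purple squares for the other tests, scalings, filters and units. *CYP71A12*, *PAD3*, *CYP82C2* and *FOX1* stay right of 0 and *WRKY33* and *CYP79B3* left of it in each fit drawn, whereas *CYP79B2* and *CYP71A13* cross 0 without *atx1setm* replicate 1.

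*CYP82C2* has close copies near it on the same chromosome. *CYP82C4* (AT4G31940), which acts in the synthesis of iron-mobilising coumarins, had 95.9 and 60.8 RPKM in *atx1setm*, against 4.54 and 10.3 RPKM in Ws. These did not overlap, the log2 fold change being 3.47 (SE 0.49, adjusted p = 0.117, edgeR quasi-likelihood test). The exact test of edgeR (adjusted p = 4.51e-08) and DESeq2 (2.14e-11) called it higher, within 1.01e-39 to 0.160 over the 14 alternatives. *CYP82C3* had 20 and 3 exon reads in *atx1setm* and 5 and 4 in Ws and was not tested. The coding sequence of *CYP82C2* was 93% identical to that of *CYP82C4*, and 7.11% of its 50-base exon windows were shared with *CYP82C4* or *CYP82C3*. For *CYP82C4* the share of such windows was 8.98%. As exon reads equalled unique exon reads, reads from shared windows may be missing from these counts, which was not tested. The RPKM of *CYP82C2* was 0.177 and 0.108 of that of *CYP82C4* in *atx1setm*, and 0.119 and 0.00955 of it in Ws.

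Next to *FOX1* stand 4 similar genes, annotated by RefSeq as FAD-binding berberine family proteins. AT1G26390 had 23.7 and 16.0 CPM in *atx1setm*, against 2.27 and 0.513 CPM in Ws, for which the log2 fold change was 3.81 (SE 0.74, adjusted p = 0.190, edgeR quasi-likelihood test). AT1G26410 had 4.72 and 2.83 CPM in *atx1setm* and 0.872 and 0.257 CPM in Ws, and its log2 fold change was 2.71 (SE 0.66, adjusted p = 0.276, edgeR quasi-likelihood test). The exact test and DESeq2 called both genes higher, with adjusted p of 0.000115 and 9.18e-09 for AT1G26390 (2.67e-38 to 0.269 over the 14 alternatives) and of 0.00649 and 0.00125 for AT1G26410 (1.77e-12 to 0.372), edgeR's first in each pair. Both were thus further apart between genotypes than *FOX1*, although the difference between them and *FOX1* was not tested. For AT1G26420 the log2 fold change was 0.67 (SE 0.45), and AT1G26400 had 1 and 3 exon reads in *atx1setm* and 0 and 0 in Ws. *FOX1* shared 0 of its 1783 windows of 50 bases with the rest of the genome, despite a coding identity of 87.5% with AT1G26390.

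**Figure D3:**
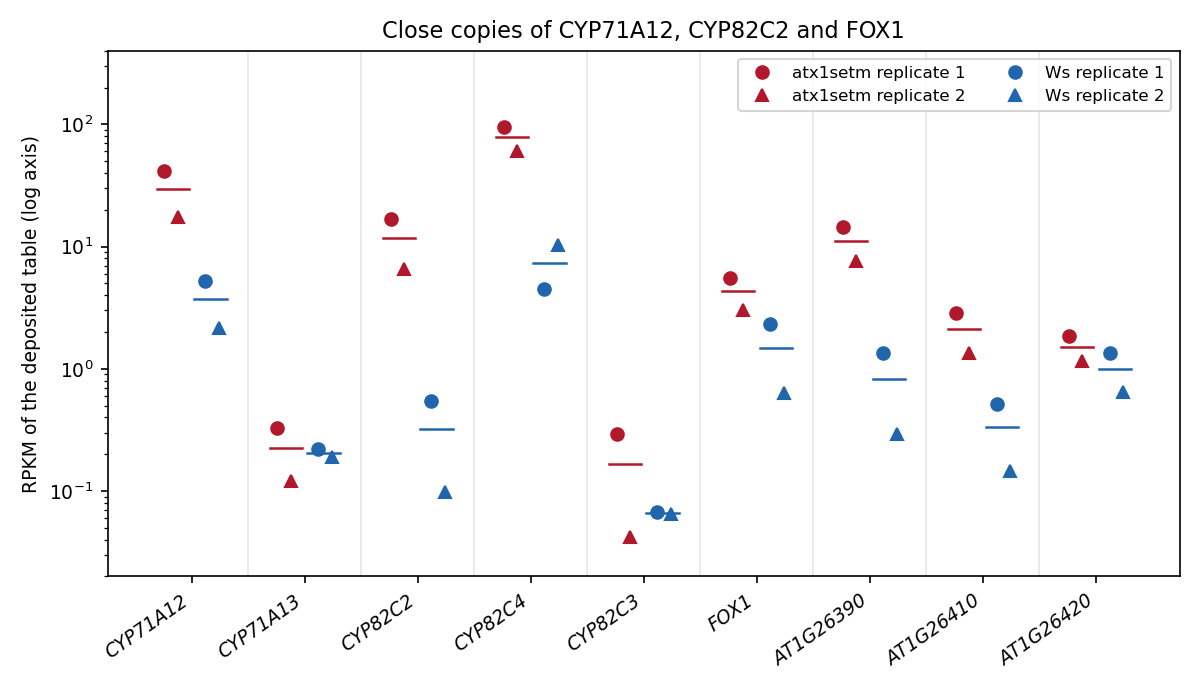
RPKM of the deposited table on a log axis for *CYP71A12*, *CYP82C2*, *FOX1* and their close copies in each library, *atx1setm* in red left of Ws in blue, circles for replicate 1, triangles for replicate 2 and lines at the means. *CYP71A13* stays between 0.121 and 0.325 RPKM in all 4 libraries while *CYP71A12* spans 2.18 to 41.3, and *CYP82C4* has the highest *atx1setm* levels of the plot.

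Among 10 other genes of the CYP71A group that were tested, 1 was higher at an unadjusted p under 0.05 and 1 was lower by the edgeR quasi-likelihood test, with a median log2 fold change of 0.19. The exact test and DESeq2 called 0 higher and 1 lower, *CYP71A16*, at an adjusted p under 0.05. *CYP71A27* had 104 and 114 CPM in *atx1setm* and 51.3 and 61.6 CPM in Ws (log2 fold change 0.95, SE 0.23, adjusted p = 0.278, edgeR). *CYP71A16*, a gene of marneral metabolism, had 9.84 and 7.09 CPM in *atx1setm* and 32.0 and 32.7 CPM in Ws (log2 fold change -1.93, SE 0.28, adjusted p = 0.117, edgeR). *CYP71A20* had 9.69 and 7.04 CPM in *atx1setm* and 5.17 and 2.62 CPM in Ws, with an adjusted p of 0.513 in the same edgeR test.

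The listed genes of tryptophan synthesis and of glutathione conjugation and transport were not called by the edgeR quasi-likelihood test, the exact test or DESeq2. The lack of a call does not show that their levels were equal. Of 10 genes of tryptophan synthesis, 0 had an unadjusted p under 0.05 by the edgeR quasi-likelihood test, 0 passed an adjusted p of 0.05 by the edgeR exact test or by DESeq2, and the median log2 fold change was 0.15. *TSA1*, the tryptophan synthase α subunit, had 208 and 248 CPM in *atx1setm* and 148 and 176 CPM in Ws, with a log2 fold change of 0.49 (SE 0.26). AT2G04400 and *PAI2*, which act earlier in the same route, had log2 fold changes of 0.29 (SE 0.25) and 0.27 (SE 0.35). Of 9 genes of glutathione conjugation and transport, 0 had an unadjusted p under 0.05 in the edgeR test, 0 were called by the exact test or DESeq2, and the median was -0.13. *ABCG34*, a camalexin exporter, had 254 and 122 CPM in *atx1setm* and 407 and 285 CPM in Ws, a log2 fold change of -0.88 (SE 0.44). *GGP1*, which trims the glutathione adduct, had one of 0.37 (SE 0.26), and *PEN3*, also an exporter, one of -0.42 (SE 0.42).

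Of 13 other regulators of camalexin, 0 were higher and 1 was lower at an unadjusted p under 0.05 by the edgeR quasi-likelihood test, with a median log2 fold change of -0.34, and 0 were called by the exact test or DESeq2. *MYB51*, an activator of indole glucosinolate genes, had 18.0 and 12.7 CPM in *atx1setm* and 53.6 and 22.9 CPM in Ws. Like *WRKY33*, it was lower in both *atx1setm* libraries and highest in Ws replicate 1, and its log2 fold change was -1.32 (SE 0.48, adjusted p = 0.468, edgeR). *NAC042* had 4.87 and 3.53 CPM in *atx1setm* and 8.62 and 5.98 CPM in Ws, with a log2 fold change of -0.80 (SE 0.35). The kinase gene *CPK5* had one of -0.42 (SE 0.29). *WRKY18* and *WRKY40*, named after their values were seen, had 97.0 and 15.2 CPM and 30.2 and 6.16 CPM in *atx1setm*, and 126 and 16.5 CPM and 84.3 and 11.6 CPM in Ws. In both genes replicate 1 was far above replicate 2 in each genotype, a greater gap between replicates than in *WRKY33*.

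The indole glucosinolate route shares CYP79B2 and CYP79B3 with camalexin. Of its 19 genes, 1 was higher and 2 were lower at an unadjusted p under 0.05 by the edgeR quasi-likelihood test, with a median log2 fold change of 0.0042. At an adjusted p under 0.05, the exact test called 1 higher (*CYP81F1*) and 0 lower, and DESeq2 called 1 higher (*CYP81F1*) and 1 lower (*IGMT1*). *CYP81F1*, which modifies the indole ring, had 5.62 and 10.2 CPM in *atx1setm* and 1.85 and 2.74 CPM in Ws (log2 fold change 1.78, SE 0.43, adjusted p = 0.276, edgeR). *IGMT1*, a methyltransferase of the same branch, had 14.6 and 24.8 CPM in *atx1setm* and 78.4 and 38.3 CPM in Ws (log2 fold change -1.57, SE 0.47, adjusted p = 0.362, edgeR), and *CYP81F3* had a log2 fold change of -0.65 (SE 0.23). Of the 4 nitrilases, 1 was higher and 0 were lower, with a median of 0.26, and the exact test and DESeq2 called the same gene. That gene was *NIT2*, whose product converts indole-3-acetonitrile, with 210 and 382 CPM in *atx1setm* and 62.6 and 125 CPM in Ws (log2 fold change 1.66, SE 0.48, adjusted p = 0.358, edgeR). Fold changes on the log2 scale were 0.86 (SE 0.44) for *NIT1* and -1.48 (SE 0.74) for *NIT4*.

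**Figure D4:**
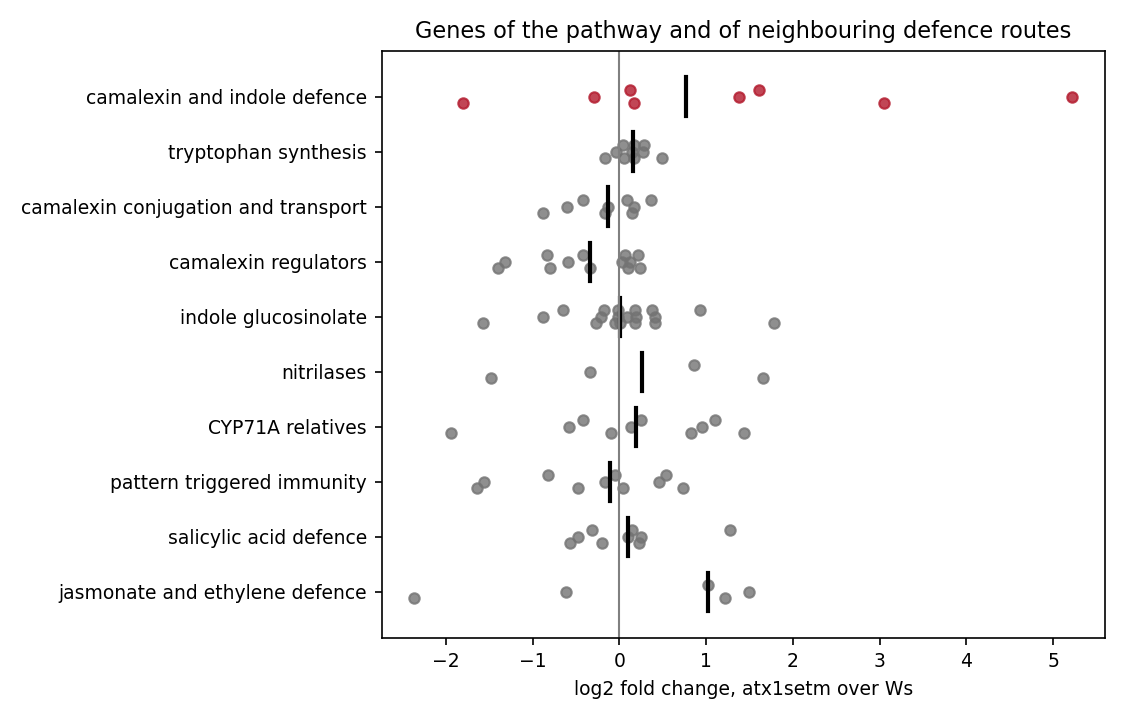
Log2 fold change (*atx1setm* over Ws, horizontal axis) of each tested gene, as points, in the group described here (red, top) and in 9 lists of the pathway and of other defence routes (grey), with a black line at each median. The red points span -1.80 to 5.21, a wider range than in any other list drawn, and the tryptophan genes lie closest together.

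Other defence routes were read beside the camalexin genes. Of 10 genes of pattern-triggered immunity, 0 were higher and 1 was lower at an unadjusted p under 0.05 by the edgeR quasi-likelihood test, with a median log2 fold change of -0.11. The lower one was *NHL10*, with 5.23 and 6.52 CPM in *atx1setm* and 18.1 and 16.4 CPM in Ws (log2 fold change -1.56, SE 0.26, adjusted p = 0.148, edgeR), while *PHI-1* had one of 0.73 (SE 0.34) and *FLS2*, the flagellin receptor, one of -1.64 (SE 0.75). Of 9 tested genes of salicylic acid defence, 1 was higher and 0 were lower, with a median of 0.09. The higher one was *CBP60G*, an activator of salicylic acid synthesis, with 15.6 and 10.5 CPM in *atx1setm* and 6.96 and 3.80 CPM in Ws (log2 fold change 1.28, SE 0.41, adjusted p = 0.409, edgeR). For *ICS1*, the synthesis enzyme itself, it was -0.56 (SE 0.31), for *PAD4* -0.47 (SE 0.30), and *PR1* had 0 reads in every library. Of 5 tested genes of jasmonate and ethylene defence, 2 were higher and 1 was lower, with a median of 1.02. *ORA59* had 9.56 and 12.9 CPM in *atx1setm* and 6.37 and 3.23 CPM in Ws, and *PR4* had 209 and 545 CPM in *atx1setm* and 98.4 and 169 CPM in Ws. *VSP2*, a jasmonate response gene, had 27.6 and 23.6 CPM in *atx1setm* and 110 and 153 CPM in Ws (log2 fold change -2.36, SE 0.28, adjusted p = 0.0926, edgeR). At an adjusted p under 0.05, both the exact test and DESeq2 called *NHL10* and *VSP2* lower and 0 other tested genes of these 3 lists. Within the 3 lists, genes thus lay on both sides of 0.

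Markers of cell types were read for the same libraries. The 3 root hair markers were all lower at an unadjusted p under 0.05 by the edgeR quasi-likelihood test, with a summed level of 36.8 and 38.1 CPM in *atx1setm* and 96.7 and 107 CPM in Ws. Their log2 fold changes were -1.66 for *COBL9* (SE 0.24), -1.55 for *RHD6* (SE 0.32) and -1.05 for *EXPA7* (SE 0.24), and the exact test and DESeq2 each called *COBL9* and *RHD6* lower at an adjusted p under 0.05. In the edgeR test 0 of 8 tested green shoot markers, 0 of 3 root cap, 0 of 3 xylem, 0 of 3 phloem and 0 of 3 endodermis markers had an unadjusted p under 0.05, and DESeq2 and the exact test called 0 of these. Summed green shoot markers were 187 and 567 CPM in *atx1setm* and 290 and 498 CPM in Ws, so that replicate 2 was higher in both genotypes, the reverse of *CYP71A12*, *CYP82C2*, *FOX1* and *WRKY33*. Seed storage markers summed to at most 0.214 CPM in any library. The part of root hair cells or of shoot tissue in the values of the camalexin genes was not tested.

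The genes with the profile nearest to the mean of the 8 tested genes were AT3G61400, AT2G38250, AT5G60530, AT5G38710 and *ATMPK13*, by Euclidean distance between centred log2 CPM over the 4 libraries. The distances were 0.0837, 0.0899, 0.127, 0.180 and 0.189 in this order. The mean profile they follow was 0.81 and 0.24 in *atx1setm* replicates 1 and 2 and -0.22 and -0.82 in Ws replicates 1 and 2, on the centred log2 scale. The nearest, AT3G61400, had 23.7 and 14.6 CPM in *atx1setm* and 10.6 and 6.77 CPM in Ws. With 4 libraries, likeness of profile is a weak measure, and the mean itself joins *WRKY33* with genes that differ in the other direction.

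The genes on either side of the group gave no common direction. Between *CYP71A12* and *CYP71A13* lies AT2G30766, with 28 and 48 exon reads in *atx1setm* and 4 and 5 in Ws, its log2 fold change being 3.12 (SE 0.63, adjusted p = 0.198, edgeR quasi-likelihood test). The neighbour on the other side of *CYP71A12*, AT2G30740, had 4171 and 3547 exon reads in *atx1setm* and 4980 and 3090 in Ws, with a log2 fold change of 0.010. Beside *CYP82C2*, AT4G31980 had 436 and 380 exon reads in *atx1setm* and 482 and 354 in Ws, with a log2 fold change of 0.027. Neighbours 2 genes away differed in either direction. *CYP77B1*, near *CYP71A18*, had 533 and 644 exon reads in *atx1setm* and 73 and 79 in Ws. *CIPK22*, near *WRKY33*, had 939 and 805 in *atx1setm* and 294 and 258 in Ws, the opposite direction to *WRKY33*. *MES13*, near *FOX1*, had 23 and 30 in *atx1setm* and 164 and 170 in Ws. Of the neighbours named in this paragraph, only *MES13* was lower in *atx1setm*, but neighbours not named here lay on both sides of 0. Those in this paragraph were named after their values were seen, so this tally does not describe the rest.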

How the data were processed

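RNA-Seq of whole roots, single-end, with 2 libraries per genotype, was mapped by the authors to TAIR10 in CLC Genomics Workbench after trimming and FastQC. How reads were mapped, and whether by strand, is not stated in the sources read for this work. The deposited table has 28642 loci and 87 columns. Its exon reads are raw counts by the authors, equal to its unique exon reads, and the deposited RPKM values were scaled by the authors by exon length and mapped gene reads. Columns of the authors' comparison (fold changes, p-values) and 47 per-sample columns were not used.

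Genes were kept by filterByExpr (20714), scaled by TMM (factors 1.09 and 0.855 in *atx1setm*, 1.06 and 1.01 in Ws) and tested with the quasi-likelihood method (legacy fit) of edgeR 4.0.16 in R 4.3.3, with Benjamini-Hochberg adjustment at 0.05 over all genes tested. The tests were tried on simulated data. P-values measure the spread between libraries, called biological replicates by the labels. The SE is that of the fit. Counting floors (3 reads) cover counting error only.

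The group, the 19 lists of 140 genes in all and the tests were chosen with earlier results of these data known. Text names every gene of the group, up to 3 tested genes per list with the smallest p, the 5 nearest profiles and *ATX1*. Any other gene named was chosen after its values were seen. As alternatives, the exact test of edgeR, DESeq2 1.42.0, the replicate number as a block, RLE, library totals, no filter, a minimum of 10 counts per library, gene reads, limma-trend (limma 3.58.1) on log2(RPKM + 0.5) and log2(RPKM + 0.1), and the omission of each library were run. Symbols come from the RefSeq name table (TAIR10.1), except *FOX1*. Gene positions are those of the table (TAIR10), and upstream sequences and windows were read from RefSeq TAIR10.1.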

Additional observations from a re-analysis of the deposited data

How the results depend on the processing

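Counts of genes of the group past an adjusted p of 0.05 were 0 in the edgeR quasi-likelihood test and 0 under RLE, library totals, no filter (81 genes called in all), at least 10 counts, gene reads and both limma-trend fits. They were 3 by the exact test, 4 by DESeq2 (817 and 666 genes called in all) and 2 to 4 with a library left out (146 to 4566 in all). The lower count at an unadjusted p under 0.05, which is *WRKY33*, fell to 0 under library totals, at least 10 counts and both limma-trend fits. Without Ws replicate 1 the log2 fold change of *WRKY33* was -0.78. The higher count was 3 in the edgeR quasi-likelihood test and 2 to 4 under the alternatives that kept every library. Shares of all genes at an unadjusted p were not taken for the alternatives, so these counts cannot be read as results about the group. The log2 fold change turned to -0.027 for *CYP79B2* and -0.48 for *CYP71A13* without *atx1setm* replicate 1 (with a library left out they ranged from -0.027 to 0.28 and from -0.48 to 0.61), and kept its sign for the other 6 tested genes in every alternative that tested them (13 for *CYP82C2*, which like *CYP71A13* drops out at a minimum of 10 counts, and 14 for the rest). The cause of these changes was not tested. Same-numbered libraries deviated together (r = 0.746 across 20714 genes), but 2 pairs with no stated source do not establish a pairing. With the replicate number as a block, 5 genes of the group passed (*FOX1*, *CYP71A12*, *WRKY33*, *PAD3* and *CYP82C2*), as did 3888 genes in all. Unique exon reads were not run, since they equal the total exon reads. Depth limits *CYP71A13* and *CYP71A18*, and the Ws level of *CYP82C2*, whose fold rests on 40 and 6 reads.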
